A study of Mus musculus with 16 samples.

Results

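The 10 genes described here encode transcription factors and matrix proteins of bone and cartilage: Runx1, Runx2, Sox9, Sp7, Alpl, Ibsp, Sparc, Postn, Ogn and Tnc. They were chosen by name, as every probe whose symbol in the deposited non-normalized table equals 1 of the 10. That gave 19 of 25697 probes, for 9 of the 10 genes. Alpl is listed in that table only under its older symbol Akp2, and its 1 probe was found through the Entrez gene identifier. Counts of probes below are over the 19 probes found by symbol, and Alpl is given beside them.

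RNA came from whole hamstring muscle of female mice, taken 2 days after surgery and hybridised to Illumina expression BeadChips. Mice had a spinal cord injury (SCI) or a sham operation, and an injection into the muscle of either saline or cardiotoxin (CDTX), a myotoxic venom peptide used to injure muscle fibres. The 4 groups are named by surgery and injection: Sham+Saline, Sham+CDTX, SCI+Saline and SCI+CDTX. Each has 4 arrays, and the series text names SCI+CDTX as the one group in which ectopic bone goes on to form in the muscle. The labels exclude SCI+CDTX 2 from the authors' final analysis, so tests used 15 arrays and detection was counted over all 16. The strain and age are not given in the labels. Nothing in them says whether the arrays of a group come from separate animals, so p-values measure the spread between these samples. All SCI arrays lie on slide 1 and all sham arrays on slide 2, so in SCI against sham comparisons surgery and slide cannot be told apart. CDTX was compared with saline within a slide.

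Endochondral bone forms on a cartilage template. Sox9 drives the cartilage programme, and Runx2 and then Sp7 (osterix) drive osteoblast differentiation, with Runx1 as a further runt-domain factor expressed in skeletal progenitors, blood cells and injured or denervated muscle. Osteoblasts then express Alpl, the tissue-nonspecific alkaline phosphatase that permits mineral deposition, and Ibsp, the bone sialoprotein of mineralising matrix. Sparc (osteonectin), Postn (periostin) and Tnc (tenascin-C) are matricellular proteins that are also expressed by fibroblasts in wounds and regenerating muscle. Ogn (osteoglycin or mimecan) is a small leucine-rich proteoglycan of connective tissue.

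Probes are 50 bases long, and the first 30 bases of those on which the results turn are shown, 5′ to 3′, as the deposited table gives them. Ibsp and Sp7 are shown because their signal was limited to 2 arrays, and Runx1 and Sox9 because they are the transcription factors detected.
Ibsp ILMN_3141106: gtgcattttatagtgtggaatggtgctaca
Ibsp ILMN_3063340: caacccctgccccccatgaatgatttgtct
Sp7 ILMN_2733114: ccagtgacttttaaagccgctttgtgcctt
Runx1 ILMN_2589107: ccatggctacggttcagatgtgcatcgtgt
Sox9 ILMN_3007428: gtttgtggacaaatgagaggtttcagatgc
The 3 probes of Ogn are shown because they disagreed with each other, and both Sparc probes because they lie at opposite ends of 1 transcript.
Ogn ILMN_2859613: tgtgtccatgactcattttctctgtgactg
Ogn ILMN_2740622: ctgtatatgttcacccaaacaaactaaata
Ogn ILMN_2859619: gcatctgtgaactgtaaggccacaactatt
Sparc ILMN_3136561: acatgacagactcccagcagcccgggacct
Sparc ILMN_3059326: tcccagcatcatgagggcctggatcttctt
Of the 6 Tnc probes, ILMN_2463181 and ILMN_2463180 are nearly the same probe. They share a run of 49 bases and are offset by 1 base, with the shared bases in capitals, so they are not independent measurements.
Tnc ILMN_2463181: CCACACGGATCACTGAGGCACTGATGTAGG
Tnc ILMN_2463180: aCCACACGGATCACTGAGGCACTGATGTAG
Stretches from 2 Tnc probes that were not detected on any array are shown for contrast. The capitals mark the longest run the 2 probes share, 15 bases.
Tnc ILMN_2454497: acaggaaGCCAACAATGTGGAGactgctca
Tnc ILMN_1251943: gcaggagGCCAACAATGTGGAGgccgctca
The table places Runx1 on chromosome 16, Sox9 and Sparc on chromosome 11, Sp7 on chromosome 15, Ibsp on chromosome 5, Ogn on chromosome 13 and Tnc on chromosome 4. It names no genome build, so no positions are given. Within the transcripts, the Ogn probes start at bases 2330 (ILMN_2859613), 2228 (ILMN_2859619) and, in another version of the transcript record, 1841 (ILMN_2740622). The Sparc probes start at bases 80 (ILMN_3059326) and 1570 (ILMN_3136561).

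At day 2, 5 of the 9 genes with a probe found by symbol were detected: Runx1, Sox9, Sparc, Ogn and Tnc, and Alpl makes 6. A probe is called detected on an array where its deposited detection p-value, which sets its signal against the negative control beads, is under 0.05. A probe was tested where this held on at least 3 of the 15 arrays, which kept 10 of the 19 probes and 14763 of the 25697 on the array. Runx2, the factor that commits cells to the osteoblast lineage, was not detected on any of the 16 arrays by either probe. Its raw intensity ran from 85.6 to 103.6 for ILMN_1220130 and from 87.5 to 104.7 for ILMN_2599072. Postn was also not detected on any array, with raw intensity from 88.7 to 108.5 on its 1 probe, ILMN_1216882. Its log2 level was 4.46 ± 0.03 (SD, n = 3) in SCI+CDTX and between 4.24 and 4.30 on average in the other groups, all below the detection limit. A signal below the limit is a bound and does not show that a transcript is absent.

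Tnc was seen by only some of its probes. ILMN_2463181, near the end of the transcript at base 6313, was detected on 16 of 16 arrays, and ILMN_2463180 on 15. The internal probes, ILMN_2454497 at base 3441 and ILMN_1251943 at base 3980, were not detected on any array. The probe ILMN_2485085 at base 4639 was detected on 1 array, and ILMN_1236724 at base 3834 on 3 arrays, with raw intensity no higher than 110.5 on any. The level of Tnc therefore rests on the overlapping pair. Runx1 was detected on all 12 arrays of the 3 groups with an injury (to cord, muscle or both) and on 0 of 4 Sham+Saline arrays, and Sox9 on the same 12 and on 1 of 4.

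The osteoblast genes Ibsp and Sp7 were detected on 2 arrays, SCI+Saline 4 and Sham+Saline 4, and on none of the 8 CDTX arrays. Raw intensity of Ibsp ILMN_3141106 was 387.0 on Sham+Saline 4 and 196.3 on SCI+Saline 4, against 87.5 to 109.1 on the other 14 arrays. Ibsp ILMN_3063340 read 225.1 and 132.9 on the same 2 arrays, against 88.8 to 107.9. Sp7 read 257.9 and 138.3, against 86.0 to 109.2. All 3 probes therefore have the same order, with Sham+Saline 4 above SCI+Saline 4 and the remaining arrays at background. Means over the saline groups, such as 8.62 on one array against 4.22 to 4.46 on the other 3 Sham+Saline arrays for log2 Ibsp ILMN_3141106, describe 1 sample and not the group.

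The same 2 arrays carried other bone, cartilage and marrow transcripts, named here after their values were seen because their pattern over 16 arrays was most like that of Ibsp or because they define those tissues. Bglap ILMN_3101908 (osteocalcin, a late osteoblast product) had a log2 level of 11.18 on Sham+Saline 4 and 8.69 on SCI+Saline 4, against at most 4.44 on the other 14 arrays. Col2a1, the main cartilage collagen, was at 9.49 and 7.63 against at most 5.20, and Panx3, a channel of chondrocytes and osteoblasts, at 8.06 and 5.80 against at most 4.62. Mpo, made by immature neutrophils, was higher on SCI+Saline 4, at 8.73, than on Sham+Saline 4, at 8.23, against at most 4.70 on the other 14 arrays. Ear6, Bglap and Bglap3 were the genes most like Ibsp ILMN_3141106 over the 16 arrays, with Pearson correlations of 0.99, a figure set almost wholly by those 2 arrays.

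Sums over whole marker lists, as linear level above the offset, are not independent of the genes just named. The osteoblast list holds Bglap and the chondrocyte list Col2a1, and a linear sum is led by its brightest gene. Bglap, by its brighter probe ILMN_2610166, was at log2 11.59 on Sham+Saline 4 and 9.09 on SCI+Saline 4, most of the osteoblast sum. The 6 osteoblast and osteocyte markers summed to 3238 on Sham+Saline 4 and 565.2 on SCI+Saline 4, against 19.8 to 41.3 on the other 14 arrays, with Dmp1 and Sost not detected on any array. The 8 chondrocyte markers summed to 806.4 and 234.6 against 29.9 to 65.7, with Matn3 and Cnmd not detected anywhere. The 5 neutrophil markers on the array summed to 10613 and 12349 against 74.3 to 5164. The skeletal muscle fibre list, which checks the tissue label, summed to 101583 to 115552 over all 16 arrays, and all 7 of its genes were detected. How these transcripts came to be on 2 saline arrays was not tested. The counts of member probes are also given without these arrays, a step chosen after seeing the data. Member results below that they moved across the threshold, and passing ones that they moved by over 1.5 times, are given likewise. Results that did not pass are not all given this way, and some of them moved by more or changed sign.

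**Figure D1:**
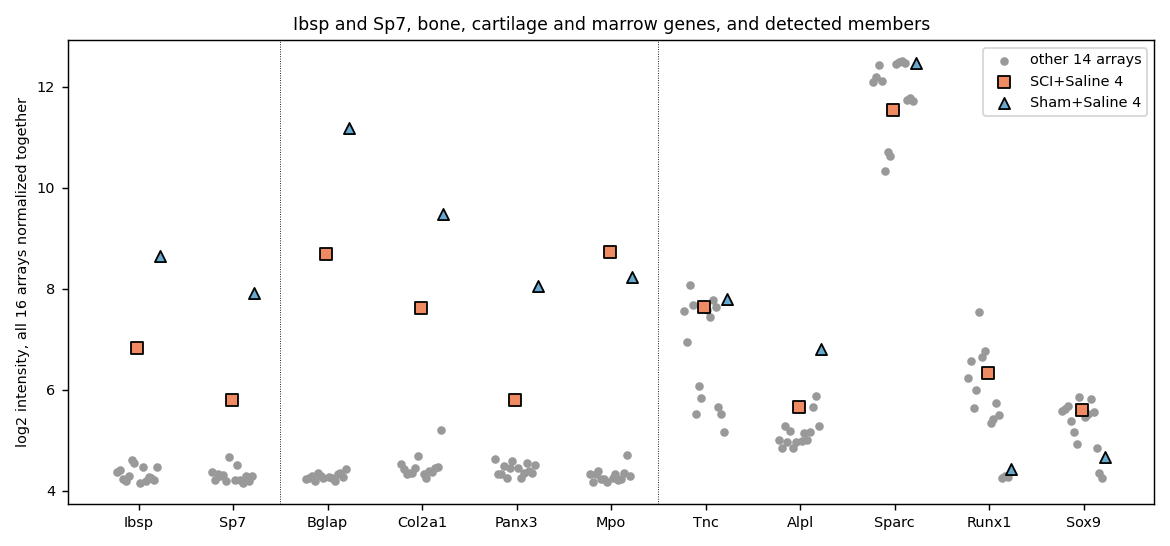
Log2 normalized intensity (y axis, 16 arrays normalized together) of Ibsp and Sp7, of 4 bone, cartilage and marrow genes, and of 5 detected members; each point is 1 array. SCI+Saline 4 (square) and Sham+Saline 4 (triangle) stand above the other 14 arrays (grey) for the first 6 genes, and lie within or near the range of the CDTX arrays for Tnc.

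Among the 10 tested probes found by symbol, with CDTX after SCI (SCI+CDTX against SCI+Saline) 4 were higher and 1 lower at an adjusted p under 0.05. Of all tested probes 42.9% passed in this comparison, 20.4% higher and 22.5% lower. With CDTX after sham surgery 7 were higher and 0 lower, where 48.9% of all probes passed, 23.1% higher and 25.8% lower. With SCI in saline muscle 3 were higher and 2 lower, where 29.5% of all probes passed, 14.8% higher and 14.6% lower. With SCI in CDTX muscle 1 was higher and 2 lower, where 29.8% passed, 14.9% in each direction. For SCI+CDTX against Sham+Saline, 4 were higher and 0 lower, where 46.5% passed, 23% higher and 23.6% lower. For Sham+CDTX against SCI+Saline, 6 were higher and 2 lower, where 47.8% passed, 23.2% higher and 24.7% lower. The test of whether the CDTX effect differed between SCI and sham mice passed for 3 probes, all with a negative difference, where 23.6% of all probes passed, 12% with a positive and 11.6% with a negative difference (the CDTX change after SCI minus that after sham surgery).

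The groups did not overlap for 4 of the 10 probes with CDTX after SCI, where this held for 45.9% of all probes, and for 3 with CDTX after sham surgery (45% of all probes). They did not overlap for 5 with SCI in saline muscle (23.5% of all probes), and for 4 with SCI in CDTX muscle (42.6%). For SCI+CDTX against Sham+Saline this held for 2 probes (48.8% of all), and for Sham+CDTX against SCI+Saline for 5 (44.1%).

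Without SCI+Saline 4 and Sham+Saline 4, the probes that passed were 5 for CDTX after SCI (45.8% of all probes), 7 for CDTX after sham surgery (49.3%), 6 for SCI in saline muscle (28.5%) and 3 for SCI in CDTX muscle (31.8%). They were 6 for SCI+CDTX against Sham+Saline (47.4%), 7 for Sham+CDTX against SCI+Saline (48.6%) and 4 for the difference of CDTX effects (25.4%). Under median scaling in place of quantile normalization, the higher share of all passing probes was 27.3% for CDTX after SCI, 24.6% for CDTX after sham surgery, 41.6% for SCI in saline muscle and 52.5% for SCI in CDTX muscle. It was 26.5% for SCI+CDTX against Sham+Saline, 27.7% for Sham+CDTX against SCI+Saline and 57.8% for the difference of effects. Mean raw intensity per array was 230.5 to 277.0 in Sham+Saline and 319.9 to 373.1 in the other groups. The 10 probes belong to only 5 genes and the comparisons share groups, so these counts are not independent. The median log2 fold change of the 10 probes was 0.17 for CDTX after SCI and 0.84 for CDTX after sham surgery, against -0.05 and -0.04 over all tested probes. In this bulk tissue, a change in the number of cells of a type and a change in RNA per cell cannot be told apart.

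**Figure D2:**
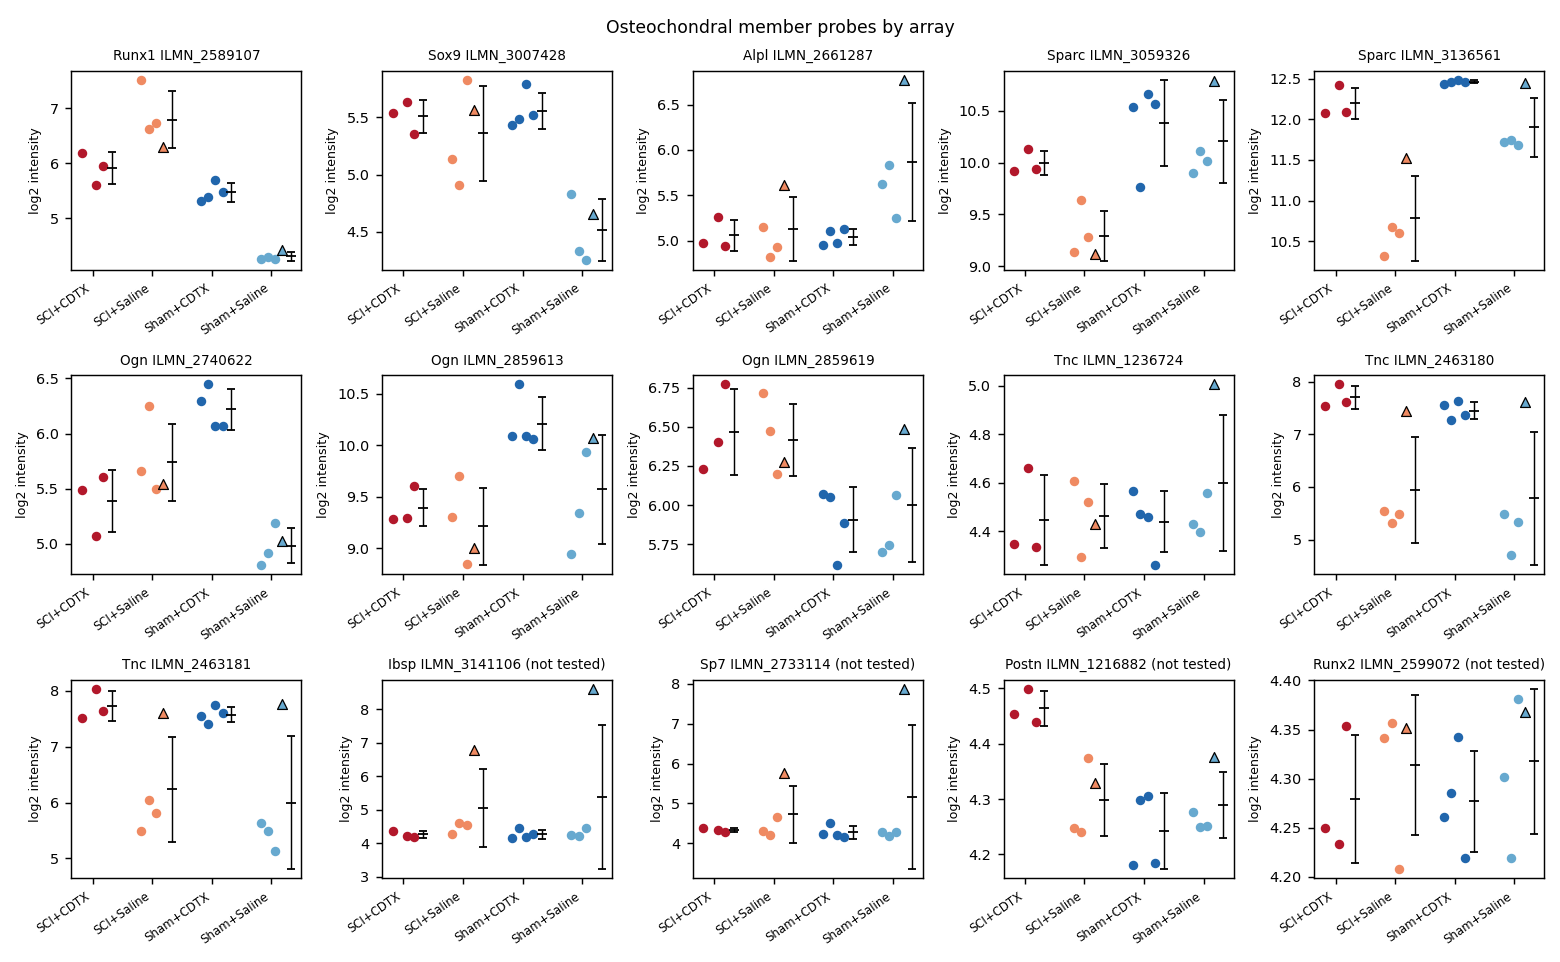
Log2 normalized intensity by group for the 11 tested member probes and 4 probes outside the test; points are arrays, the bar beside them is the mean ± SD, and triangles are SCI+Saline 4 and Sham+Saline 4. Runx1 is highest in SCI+Saline, Sparc lowest there, and both detected Tnc probes are near 7.5 on all CDTX arrays and on the 2 triangles.

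Runx1 was highest in SCI+Saline, intermediate in both CDTX groups and below detection in Sham+Saline. Its log2 level was 7.51, 6.62, 6.73 and 6.29 on the SCI+Saline arrays, and 6.19, 5.61 and 5.96 on the SCI+CDTX arrays. It was 5.31, 5.39, 5.70 and 5.47 in Sham+CDTX, and 4.26, 4.30, 4.27 and 4.43 in Sham+Saline. Over the 15 arrays every SCI+Saline array lay above every array of the other groups, and SCI+CDTX and Sham+CDTX overlapped. The excluded SCI+CDTX 2 read 6.57 when all 16 arrays were normalized together, above SCI+Saline 4 at 6.33.

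With CDTX after SCI, Runx1 fell by 0.87 ± 0.22 (SE) on the log2 scale, with an adjusted p of 0.0031 from limma. After sham surgery CDTX was associated with a higher level, at least 1.6-fold, since the Sham+Saline level is only a bound (fitted log2 change 1.16, adjusted p 9.7e-05). SCI in saline muscle gave at least 4.0-fold (adjusted p 5.6e-08), and SCI+CDTX was at least 2.2-fold above Sham+Saline (adjusted p 6.7e-06). The CDTX effect was 2.03 lower on the log2 scale after SCI than after sham surgery (95% interval -2.64 to -1.41, adjusted p 0.00011), a difference that rests on the below-detection Sham+Saline arrays. This difference and the sham CDTX change did not pass with the probe difference score, explained below with the Ogn probes. The sham CDTX change was then 0.36 (adjusted p 0.68) and the difference -1.31 (adjusted p 0.26). Between SCI+CDTX and Sham+CDTX the change of 0.45 did not pass (95% interval -0.01 to 0.90, adjusted p 0.13). It passed when those 2 groups were fitted alone (adjusted p 0.035) and without SCI+Saline 1 (adjusted p 0.046). In the authors' deposited table, Runx1 averaged 56.3 in SCI+CDTX and 80.8 in SCI+Saline, with a difference p of 0.54, so that comparison passed here and not there.

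Sox9 was higher in the 3 groups with an injury than in Sham+Saline and did not differ among them by this test. Its log2 level was 5.54, 5.63 and 5.35 in SCI+CDTX, and 5.14, 4.90, 5.82 and 5.57 in SCI+Saline. It was 5.43, 5.48, 5.78 and 5.52 in Sham+CDTX, and 4.83, 4.34, 4.26 and 4.66 in Sham+Saline. The Sham+Saline arrays lay below every other array, and only 1 of them was detected.

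Against Sham+Saline, Sox9 rose by 0.99 ± 0.20 (SE) in SCI+CDTX (adjusted p 0.00046 from limma), 1.03 ± 0.18 in Sham+CDTX (adjusted p 0.00014) and 0.84 ± 0.18 in SCI+Saline (adjusted p 0.0021). These sizes, and the difference of CDTX effects, are set against a group with 3 of 4 arrays below detection. Among the 3 injured groups the differences were between -0.05 and 0.20, and the interval of CDTX after SCI ran from -0.27 to 0.57. The CDTX effect was 0.88 lower after SCI than after sham surgery (adjusted p 0.024). That call was lost under median scaling, at -0.43 (adjusted p 0.19), with no background correction, at -0.24 (adjusted p 0.060), and without SCI+CDTX 4 (adjusted p 0.070) or Sham+CDTX 3 (adjusted p 0.053). It was also lost with the probe difference score, at -1.10 (adjusted p 0.29). Median scaling also left the SCI effect in saline muscle at 0.38, with an adjusted p of 0.074.

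Alpl, near background, was highest in Sham+Saline. Its log2 level was 5.62, 5.84, 5.24 and 6.77 in Sham+Saline and 4.95, 5.11, 4.98 and 5.12 in Sham+CDTX. It was 5.14, 4.82, 4.93 and 5.61 in SCI+Saline, and 4.97, 5.26 and 4.94 in SCI+CDTX. The highest value of each saline group was on the array with Ibsp and Sp7.

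Alpl fell by 0.83 on the log2 scale with CDTX after sham surgery (SE 0.24, adjusted p 0.0077 from limma) and by 0.74 with SCI in saline muscle (adjusted p 0.026). It was at -0.81 in SCI+CDTX against Sham+Saline (adjusted p 0.015), and CDTX after SCI left it at -0.07 (95% interval -0.61 to 0.47). The call against Sham+Saline was lost without SCI+CDTX 4 (adjusted p 0.056) and with the probe difference score (adjusted p 0.058), and the p in the authors' deposited table was 0.74. With that score, explained with the Ogn probes, the change with CDTX after sham surgery was -0.58 (adjusted p 0.56). The raw intensities of Sham+Saline 1 to 3, 103.8 to 108.2, were below those of all Sham+CDTX arrays, 113.8 to 125.5, the opposite order to the normalized values. Without background correction but with quantile normalization the change was -0.28 (adjusted p 0.031). Without SCI+Saline 4 and Sham+Saline 4 the change with CDTX after sham surgery was -0.53 (adjusted p 0.010) that with SCI in saline muscle -0.60 (adjusted p 0.013) and that of SCI+CDTX against Sham+Saline -0.51 (adjusted p 0.019). The call for SCI in saline muscle was lost without Sham+Saline 4 alone, at -0.44 (adjusted p 0.089), and without SCI+Saline 2 or 3 (adjusted p 0.082 and 0.064).

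Sparc, an abundant matrix glycoprotein, was lowest in SCI+Saline by both probes. By ILMN_3136561 the log2 values were 10.31, 10.68, 10.60 and 11.53 in SCI+Saline and 12.08, 12.42 and 12.09 in SCI+CDTX. They were 12.44, 12.47, 12.49 and 12.46 in Sham+CDTX, and 11.72, 11.75, 11.69 and 12.45 in Sham+Saline. Every SCI+Saline array lay below every array of the other groups, while Sham+Saline 4 lay among the Sham+CDTX arrays.

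With CDTX after SCI, Sparc ILMN_3136561 rose by 1.42 ± 0.23 (SE) on the log2 scale, 2.67-fold (adjusted p 9.2e-05 from limma), and with CDTX after sham surgery by 0.56 ± 0.21 (adjusted p 0.037). With SCI in saline muscle it fell by 1.12 ± 0.21 (adjusted p 0.00064). SCI+CDTX and Sham+CDTX differed by -0.26, which did not pass (adjusted p 0.45). Without the 2 arrays that carry Ibsp, the CDTX effects became 1.67 and 0.74, and the difference between them, 0.86 with an adjusted p of 0.057, became 0.92 with an adjusted p of 0.0032. SCI+CDTX against Sham+Saline, at 0.30 and not passing, became 0.48 (adjusted p 0.014). The sham CDTX effect was 0.03 under median scaling (adjusted p 0.89) and 0.47 with the probe difference score (adjusted p 0.60). It did not pass when any Sham+CDTX array, or any of Sham+Saline 1 to 3, was left out (adjusted p 0.063 to 0.095).

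The second Sparc probe, ILMN_3059326, gave the same order for SCI+Saline. Its log2 level was 9.14, 9.64, 9.28 and 9.12 in SCI+Saline, 9.92, 10.13 and 9.94 in SCI+CDTX, 10.54, 9.77, 10.67 and 10.56 in Sham+CDTX, and 9.90, 10.11, 10.02 and 10.79 in Sham+Saline. It rose by 0.70 with CDTX after SCI (SE 0.23, adjusted p 0.017) and fell by 0.91 with SCI in saline muscle (adjusted p 0.0027), while CDTX after sham surgery gave 0.18, which did not pass (adjusted p 0.51). Under median scaling the CDTX effect after SCI was 0.28 for this probe (adjusted p 0.30), and without SCI+CDTX 3 it was 0.63 (adjusted p 0.075). The 2 Sparc probes correlated at 0.79 over the 15 arrays. The table marks this probe as specific to an isoform and ILMN_3136561 as common to all.

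Tnc, a matrix protein of wounds and regenerating tissue, was higher with CDTX whatever the surgery. By ILMN_2463181 its log2 level was 7.52, 8.04 and 7.64 in SCI+CDTX, and 7.54, 7.41, 7.74 and 7.60 in Sham+CDTX. It was 5.49, 6.04, 5.81 and 7.61 in SCI+Saline, and 5.63, 5.48, 5.13 and 7.76 in Sham+Saline. The high value in each saline group belongs to the array with Ibsp and Sp7, and the remaining 6 saline arrays lay below every CDTX array.

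With CDTX, Tnc ILMN_2463181 rose by 1.49 ± 0.49 (SE) after SCI (adjusted p 0.018 from limma) and by 1.57 ± 0.45 after sham surgery (adjusted p 0.0071). The overlapping probe ILMN_2463180 gave 1.76 and 1.67. Without the 2 arrays, the effects of ILMN_2463181 became 1.95 ± 0.19 (adjusted p 2.4e-07) and 2.16 ± 0.18 (adjusted p 2.3e-08). SCI had no effect that passed, at 0.16 in CDTX muscle (95% interval -0.86 to 1.18) and 0.24 in saline muscle (-0.71 to 1.18), and the CDTX effects differed by -0.08 (-1.47 to 1.31). The probe ILMN_1236724 passed in none of the comparisons, except under median scaling, where it was lower, at -0.98 with CDTX after sham surgery. For ILMN_2463181 the test for CDTX after SCI was lost without SCI+CDTX 3 (adjusted p 0.081) or without SCI+Saline 1 (adjusted p 0.062). It was also lost with no detection filter (adjusted p 0.075) and with a trended and robust eBayes fit (adjusted p 0.060). With the probe difference score the change after sham surgery was 2.32 and did not pass (adjusted p 0.17).

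Among the genes whose levels over 15 arrays were most like those of Tnc were Retnlg, a resistin-like protein of neutrophils, and Gapt, each with a Pearson correlation of 0.95. The same correlations of deviations from the group means were 0.92 and 0.89. The Tnc level was 7.605 on SCI+Saline 4, against at most 6.04 on the rest of that group. On Sham+Saline 4 it was 7.76, against at most 5.63. Arrays so far from the rest of their group weigh heavily in such correlations. The correlations were not computed without these arrays, so a link within groups apart from them was not tested. The 5 neutrophil markers summed to 1968 to 3827 on SCI+Saline 1 to 3 and 12349 on SCI+Saline 4, and to 74.3 to 123.7 on Sham+Saline 1 to 3 and 10613 on Sham+Saline 4. They summed to 2078 to 5164 in SCI+CDTX and to 587.2 to 901.1 in Sham+CDTX, the groups with the highest mean Tnc level. The part of leukocyte content in the Tnc values was not tested.

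Ogn, a proteoglycan of connective tissue, gave different answers with its 3 probes. The log2 level of ILMN_2859613 was 9.28, 9.30 and 9.60 in SCI+CDTX, 9.30, 9.70, 8.85 and 9.005 in SCI+Saline, 10.09, 10.59, 10.09 and 10.06 in Sham+CDTX, and 8.94, 9.34, 9.93 and 10.07 in Sham+Saline. All Sham+CDTX arrays were at or near the top, and the other groups overlapped. The probe ILMN_2740622 read 6.30, 6.45, 6.07 and 6.07 in Sham+CDTX and 4.81, 4.92, 5.19 and 5.03 in Sham+Saline, with no overlap. On the SCI arrays it read 5.49, 5.07 and 5.61 with CDTX and 5.66, 6.25, 5.50 and 5.55 with saline. The probe ILMN_2859619 read 6.23, 6.40 and 6.77 in SCI+CDTX and 6.07, 6.05, 5.62 and 5.89 in Sham+CDTX, so here SCI+CDTX was the higher. On the saline arrays it read 6.71, 6.47, 6.20 and 6.27 after SCI and 5.70, 5.74, 6.06 and 6.49 after sham surgery, which overlap.

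For SCI in CDTX muscle the probes gave log2 changes of -0.81 (ILMN_2859613, adjusted p 0.017), -0.83 (ILMN_2740622, adjusted p 0.0025) and 0.56 (ILMN_2859619, adjusted p 0.040), all from limma. All 3 passed, not all in 1 direction, and they are the 3 probes counted for that comparison above. The calls of ILMN_2859613 and ILMN_2859619 were lost when 1 of several arrays was left out, at an adjusted p of up to 0.066 and 0.22. CDTX after sham surgery gave 0.64, 1.23 and -0.09, of which the first pair passed. The first of these was lost under median scaling (0.34, adjusted p 0.22), with no detection filter (adjusted p 0.069), and without Sham+CDTX 2, Sham+Saline 1 or Sham+Saline 2 (adjusted p 0.096, 0.12 and 0.075). CDTX after SCI gave 0.18, -0.35 and 0.05, none of which passed. SCI in saline muscle gave 0.76 for ILMN_2740622 (adjusted p 0.0029), and the CDTX effect of that probe differed between SCI and sham mice (-1.59, adjusted p 0.00024). With SCI+CDTX 2 included, none of these passed: SCI in saline muscle gave 0.76 (adjusted p 0.051), the difference of effects -1.23 (adjusted p 0.0502) and SCI in CDTX muscle -0.47 (adjusted p 0.27). Without the 2 Ibsp arrays, ILMN_2859619 newly passed for SCI in saline muscle (0.63, adjusted p 0.018) and for SCI+CDTX against Sham+Saline (0.63, adjusted p 0.0099). ILMN_2740622 no longer passed for Sham+CDTX against SCI+Saline (0.41, adjusted p 0.080). Over the 15 arrays ILMN_2859619 correlated at -0.13 with ILMN_2859613 and at 0.03 with ILMN_2740622, against 0.59 between those 2.

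Probes of one gene also disagreed across the array in a shared way. A score for this, the first component of the differences between probes of the same gene over 2761 genes (33% of their variance), was 18.2 to 20.5 on the Sham+CDTX arrays, 14.8 on the excluded SCI+CDTX 2 and -13.9 to -3.5 on the remaining arrays. When the score is a covariate over 16 arrays, its slope comes from score differences within groups. These were widest in SCI+CDTX, where SCI+CDTX 2 was at 14.8 and the group's other arrays at -6.2 to -3.5. Values with the score therefore lean largely on that excluded array. In this fit the Ogn ILMN_2740622 changes turned sign in all comparisons with Sham+CDTX. They were -0.89 against Sham+Saline, 0.87 for SCI in CDTX muscle and -1.46 against SCI+Saline. The difference of CDTX effects of that probe turned to 0.31. Of the 10 probes, 1 then passed for CDTX after sham surgery, Sox9, and 0 for SCI in CDTX muscle and for the difference of effects, where 20.7%, 1.78% and 0.294% of all probes passed. Because the score nearly follows the Sham+CDTX label, it and that group cannot be told apart, and every comparison with Sham+CDTX is subject to it. For Sham+CDTX against SCI+Saline 3 of the 10 passed, where 25.3% of all probes did. For CDTX after SCI, SCI in saline muscle and SCI+CDTX against Sham+Saline, 6, 5 and 4 of the 10 passed with the score, where 41%, 26.7% and 41.9% of all probes did.

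**Figure D3:**
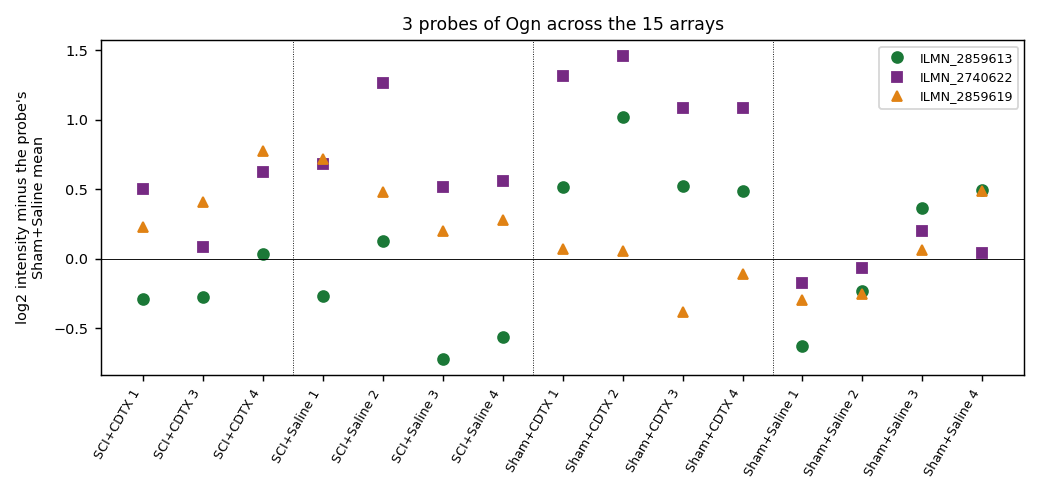
Log2 intensity of the 3 Ogn probes on 15 arrays, each minus its own Sham+Saline mean (y axis); dotted lines separate the groups. The probes ILMN_2740622 and ILMN_2859613 are high on Sham+CDTX arrays, where ILMN_2859619 lies near or below 0.

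**Figure D4:**
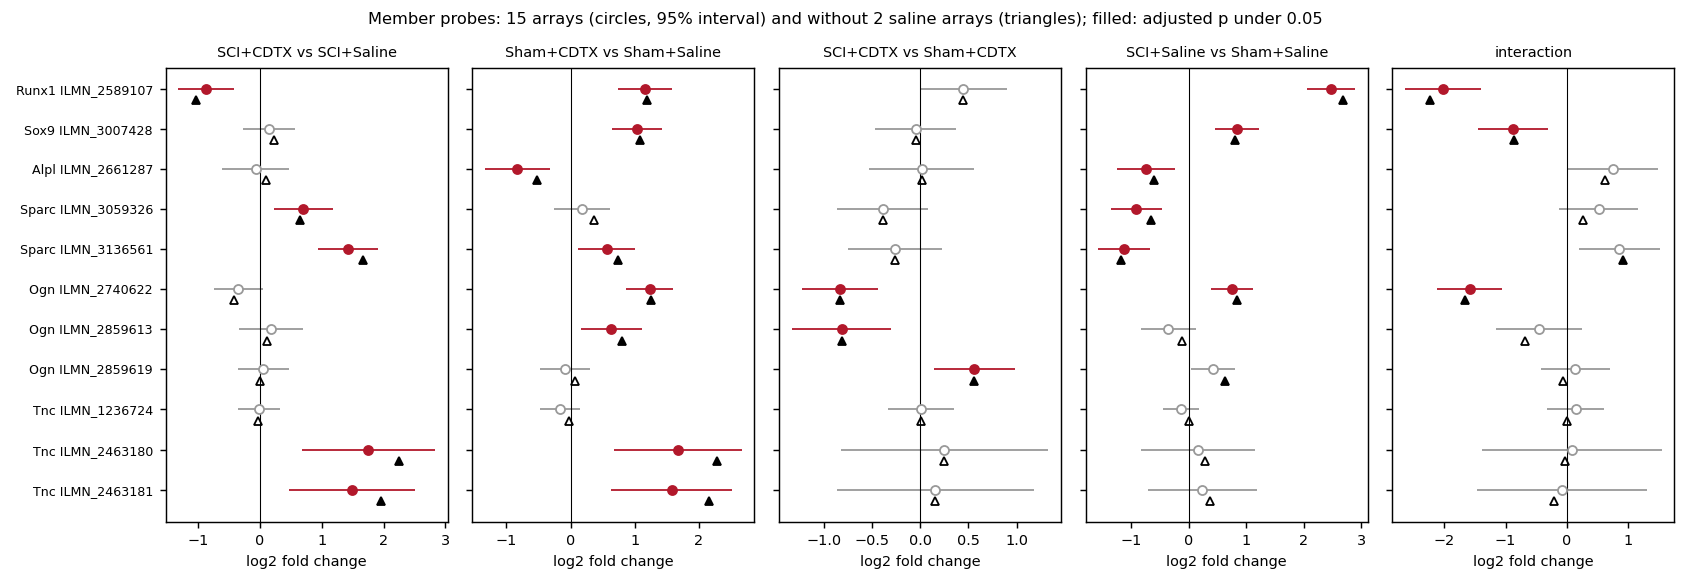
Log2 fold changes of the 11 tested member probes in 4 comparisons and the difference of CDTX effects (interaction), with 95% intervals; filled red circles passed at adjusted p under 0.05. Triangles are the values without SCI+Saline 4 and Sham+Saline 4, filled where they passed: the Tnc changes with CDTX were larger there, at 1.95 and 2.16 for ILMN_2463181.

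Genes most like the other members over the 15 arrays, chosen by the highest Pearson correlation, were Ankrd1 and Rrad for Runx1 (0.95 each), both of which are induced in stressed muscle, and Lum and Col5a1 for Sparc (0.96 and 0.95), a proteoglycan and a collagen of fibrous tissue. Ccnd3, a cyclin, was first for Sparc at 0.97. For Sox9 they were Spg21, Morf4l2 and Syncrip (0.89, 0.89 and 0.88). For Alpl they were Them7, Ackr2 and Smpd3 (0.92, 0.89 and 0.87), and for Ogn Crk, Pnrc2 and Ssr3 (0.89, 0.89 and 0.88). These are correlations over arrays of 4 groups on 2 slides, so they carry the differences between groups.

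Other genes of the same pathways came from 6 lists with 91 genes, of which 80 are on the array and 56 were tested, 1 probe per gene. With CDTX after SCI 17 of the 56 were higher and 7 lower, where 22.1% of all genes were higher and 22.2% lower. With CDTX after sham surgery 16 were higher and 11 lower, against 23.7% and 26.9%. With SCI in saline muscle 5 were higher and 14 lower, against 14.7% and 15.8%. With SCI in CDTX muscle 8 were higher and 9 lower, against 16.4% and 15.8%. For SCI+CDTX against Sham+Saline the counts were 17 and 11, against 23.9% and 24%, and for Sham+CDTX against SCI+Saline 21 and 9, against 24.5% and 24.6%. The difference of CDTX effects was positive and passed for 7 genes and negative for 4, against 13.8% and 11.6%. With the probe difference score the counts fell to 5 higher and 3 lower for CDTX after sham surgery, where 20.7% of all probes passed. They were 1 and 1 for SCI in CDTX muscle (1.78% of all probes) and 9 and 5 for Sham+CDTX against SCI+Saline (25.3%). For the difference of effects they were 0 and 0 (0.294%). Without the 2 Ibsp arrays they were 21 and 5 for CDTX after SCI, where 45.8% of all probes passed. For CDTX after sham surgery they were 17 and 9, where 49.3% of all probes passed.

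Of the 12 tested matricellular and adhesive glycoproteins, 8 were higher and 0 lower with CDTX after SCI, where 22.1% of all genes were higher and 22.2% lower. Their median log2 change was 1.01, against -0.04 over all genes. Tgfbi, a TGF-beta-induced adhesion protein, rose by 2.17 ± 0.21 (SE, adjusted p 9.1e-07 from limma), and Fstl1, a follistatin-like glycoprotein, by 2.00 ± 0.24 (adjusted p 4.0e-06). Without the 2 Ibsp arrays the count was also 8 of 12, and with the probe difference score 7. Of all probes 45.8% and 41% passed in these fits, in either direction. CDTX after sham surgery raised 5 and lowered 1 of the 12, where 23.7% of all genes were higher and 26.9% lower. It raised Tgfbi by 1.75 and Fstl1 by 1.87. With the probe difference score that change of Fstl1 was 1.03 (adjusted p 0.19).

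Of the 10 small leucine-rich proteoglycans, CDTX after SCI raised 3 and lowered 1, where 22.1% of all genes were higher and 22.2% lower. Bgn (biglycan) rose by 2.40 ± 0.27 and Prelp by 1.25 ± 0.20, and Chad, a cartilage leucine-rich protein, fell by 1.17 (adjusted p 0.035 from limma). After sham surgery CDTX raised 4 and lowered 4, where 23.7% of all genes were higher and 26.9% lower, with Bgn higher by 1.26 and Kera lower by 1.26. Without the 2 Ibsp arrays these counts were 4 and 2, where 49.3% of all probes passed in either direction. With the probe difference score they were 1 and 1, with Bgn at 2.54 and Kera at -2.07, where 20.7% of all probes passed. Of the 13 bone and cartilage matrix proteins, CDTX after SCI raised 2 and lowered 1, against the same 22.1% and 22.2% of all genes. Spp1 (osteopontin), which macrophages also make, rose by 3.49 ± 0.81 after SCI (adjusted p 0.0018) and by 5.23 ± 0.75 after sham surgery (adjusted p 1.2e-05). Without the 2 Ibsp arrays these became 4.02 and 6.08, and with the probe difference score the sham value was 3.66 (adjusted p 0.17).

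Among the 8 osteochondral transcription factors, CDTX after SCI raised 1 and lowered 2, where 22.1% of all genes were higher and 22.2% lower. Twist2 rose by 0.54 (adjusted p 0.037 from limma), and Mef2c fell by 1.85 (adjusted p 7.7e-05) and Atf4 by 0.56 (adjusted p 0.011). After sham surgery CDTX also raised 1 and lowered 2, where 23.7% of all genes were higher and 26.9% lower. Twist1 rose by 0.47 (adjusted p 0.036), and Atf4 fell by 0.62 (adjusted p 0.0024) and Msx1 by 0.44 (adjusted p 0.028). With the probe difference score none of these sham changes passed (adjusted p 0.24 to 0.84). Twist2 is a repressor of osteoblast differentiation and Mef2c is also a muscle factor. Of 7 mineralisation enzymes and transporters, CDTX after SCI raised 1 and lowered 3, where 22.1% of all genes were higher and 22.2% lower. Enpp1, which makes the mineralisation inhibitor pyrophosphate, rose by 1.10 with CDTX after SCI (adjusted p 0.0023). After sham surgery it rose by 2.08 (adjusted p 1.3e-06), where the score gave 1.77 (adjusted p 0.051). Ank, of the same list, fell by 0.65 with CDTX after SCI (adjusted p 0.014) and by 1.87 after sham surgery (adjusted p 2.3e-07). With the score these Ank changes were -0.52 (adjusted p 0.054) and -1.16 (adjusted p 0.070). Phospho1, a matrix vesicle phosphatase, fell by 1.43 with CDTX after SCI (adjusted p 0.00098). It rose by 1.05 with CDTX after sham surgery, but fell by 3.20 with the probe difference score. Of the 6 integrin subunits, Itga5, part of the fibronectin receptor, rose by 1.00 with CDTX after SCI (adjusted p 0.00064) and by 2.20 after sham surgery (adjusted p 4.2e-08).

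**Figure D5:**
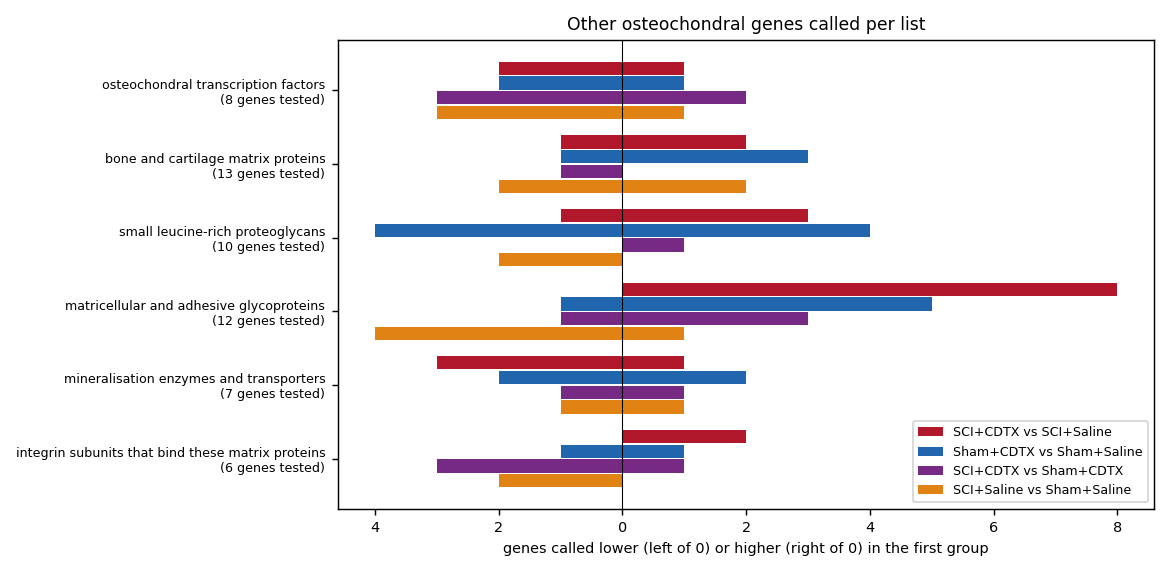
Number of tested genes of 6 osteochondral lists that were higher (right of 0) or lower (left of 0) in the first group of 4 comparisons, at adjusted p under 0.05. Matricellular and adhesive glycoproteins reach 8 of 12 higher with CDTX after SCI, where 22.1% of all genes were higher.

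Markers of other cells moved with the same comparisons. Of all genes 22.1% were higher with CDTX after SCI, 23.7% with CDTX after sham surgery and 14.7% with SCI in saline muscle. All 6 tested macrophage markers were higher with CDTX after both operations, with summed levels of 8986 to 17105 in SCI+CDTX and 13773 to 17007 in Sham+CDTX, against 687.7 to 3537 in SCI+Saline and 941.8 to 1807 in Sham+Saline. Of 7 fibroblast and fibroadipogenic progenitor markers, 5 were higher with CDTX after SCI and 6 after sham surgery. All 4 tested genes of the lymphocyte list were higher with CDTX after SCI and 0 of 4 after sham surgery. The list summed to 1252 to 1746 on the SCI+CDTX arrays against 22.3 to 93.6 on all others. That linear sum is set mostly by Glycam1, so it does not measure lymphocyte content. The log2 change of Glycam1 was 5.97, with Cd3e at 0.87, Cd3g at 1.08 and Cd79b at 1.48. The part of these cells in the matrix gene results was not tested. The 2 tested muscle precursor markers rose with SCI in saline muscle, by a median of 2.98, where Runx1 was also highest, with Pax7 and Myf5 not detected on any array.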

How the data were processed

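Total RNA of 16 mouse hamstring muscle samples was measured on Illumina BeadChips. Per the file headers, the authors' deposited non-normalized table holds each probe's mean bead intensity (arbitrary units, no background subtraction) with detection p-value, number of beads and bead standard error. GenomeStudio 2011.1 is named in the submitters' processing notes. The authors' deposited final table holds group means after average normalization and background subtraction, and p-values for SCI+CDTX against each group, whose correction is not given in the sources used here. The bead numbers, other values in the deposited table, gave 33.3 to 38.9 beads per probe on average; 11114 to 13694 probes were detected per array, and array number limits precision.

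Intensities of 15 arrays were processed with neqc (normexp, quantile, log2, offset 16) in limma 3.58.1 under R 4.3.3. Probes detected (p under 0.05) on at least 3 arrays, 14763, were fitted together (lmFit, eBayes, 11 residual degrees of freedom) and adjusted by Benjamini-Hochberg; all adjusted p-values are from limma unless named. Alternatives included all arrays, other scaling, filters and left-out arrays. Gene names were updated through Entrez identifiers to RefSeq for 23681 probes. The script was tested on simulated data.

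The members and lists were chosen with earlier results of these data known. Named were: every member probe; per list and comparison, up to 2 passing genes in each direction; 3 correlates per member. For Tnc, 2 are given and the other is not reported here.

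Of 21 same-numbered pairs of arrays, 3 had deviations from the group means that correlated above 0.1, the highest SCI+Saline 4 with Sham+Saline 4 at 0.38, so numbers were not treated as pairs.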

Additional observations from a re-analysis of the deposited data

Results flagged for a closer look

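Signal of Ibsp and Sp7, in probes outside the tests because they were detected on too few arrays, was above background on 2 saline arrays. The log2 level of Ibsp ILMN_3141106 was 8.62 on Sham+Saline 4 and 6.79 on SCI+Saline 4, against 4.16 to 4.60 on the other 13 arrays of the analysis. Ibsp ILMN_3063340 was at 7.60 and 5.60, against 4.18 to 4.58. Sp7 ILMN_2733114 was at 7.88 and 5.76, against 4.16 to 4.66.

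Single arrays stood apart from the other 3 of their group in 4 of 33 groups of 4 arrays, where chance gives about 1 in 20. Sparc ILMN_3136561 was 12.45 on Sham+Saline 4, against 11.69 to 11.75. Tnc ILMN_2463180 was 7.44 on SCI+Saline 4, against 5.31 to 5.55. On Sham+CDTX 2, Sparc ILMN_3059326 was 9.77, against 10.54 to 10.67, and Ogn ILMN_2859613 was 10.59, against 10.06 to 10.09.

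The effect of CDTX differed between SCI and sham mice, by a test of the difference, for 3 of the 10 probes, where 23.6% of all probes passed. The differences were -2.03 for Runx1 ILMN_2589107, -1.59 for Ogn ILMN_2740622 and -0.88 for Sox9 ILMN_3007428. With the probe difference score 0 of the 10 passed, where 0.294% of all probes did. The Ogn call was also lost with all 16 arrays (adjusted p 0.0502), and the Sox9 call under median scaling (adjusted p 0.19), among other settings.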

How the results depend on the processing

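Over all alternatives 1859 of 1973 values of single member probes kept their side of the threshold with no reversal, 82 no longer passed, 27 newly passed and 5 reversed. A reversal was counted only where the value passed in the main fit, in the alternative or in both. Sign changes of values that passed in neither are among the 1859. All 5 reversals were Ogn under the probe difference score: ILMN_2859613 for CDTX after sham surgery, at -0.26, and ILMN_2740622 at -0.89 (CDTX after sham surgery), 0.87 (SCI+CDTX against Sham+CDTX), -1.46 (Sham+CDTX against SCI+Saline) and 0.31 (difference of CDTX effects). Under that score the probes passing were 1 for CDTX after sham surgery, 0 for SCI+CDTX against Sham+CDTX, 3 for Sham+CDTX against SCI+Saline and 0 for the difference of effects; the cause was not tested. With no detection filter, 5 of all 19 probes found by symbol passed in Sham+CDTX against SCI+Saline, where more probes enter the adjustment. The share of all probes passing was not computed for that setting. Leaving out each array in turn gave 3 to 5 probes passing for CDTX after SCI, 5 to 7 for CDTX after sham surgery, 1 to 4 for SCI in CDTX muscle, 5 to 6 for SCI in saline muscle, 4 to 5 for SCI+CDTX against Sham+Saline, 5 to 8 for Sham+CDTX against SCI+Saline and 2 to 4 for the difference of effects. The lowest counts for CDTX after SCI and for SCI in CDTX muscle came without SCI+CDTX 3, and that of Sham+CDTX against SCI+Saline without SCI+Saline 1. Shares of all probes passing were not computed for these fits. The ranges therefore do not show whether members moved more than other probes.

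Median scaling moved the median of all probes by -0.28 for CDTX after SCI, -0.41 for CDTX after sham surgery, -0.15 for SCI in saline muscle, -0.37 for SCI+CDTX against Sham+Saline, -0.31 for Sham+CDTX against SCI+Saline and 0.15 for the difference of effects. Of all probes passing for CDTX after SCI, 27.3% were then higher. With the replicate number as a block, 1 member call was lost, Ogn ILMN_2859619 for SCI in CDTX muscle, at 0.56 (adjusted p 0.059), and 3 of 15 arrays correlated best with their own number. Probes at background, such as Runx2 and Postn, have only a bound at this signal.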
